A study of Mus musculus with 11 samples.

Results

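Mucin genes encode the heavily glycosylated proteins of the mucus layer and of the epithelial cell surface. The genes described here are 8 listed mucins (Muc1, Muc4, Muc5ac, Muc5b, Muc6, Muc13, Muc20 and Mucl3), found by symbol among the 34866 genes of a count table from mouse (Mus musculus) gastric corpus mucosa. All 8 were in the table, and 7 were among the 14889 genes with enough counts to be tested, Muc20 being the exception. Bulk RNA sequencing covered 11 samples: 2 wild-type controls and 3 samples each of 3 lines, GIF-DTR, ATP4B-DTR and GIF/ATP4B-DTR. The series describes engineered models for the selective removal of chief and parietal cells. DTR is the usual abbreviation of the diphtheria toxin receptor, whose presence makes a mouse cell sensitive to the toxin. Atp4b encodes a subunit of the proton pump of parietal cells, and Gif encodes intrinsic factor, which chief cells secrete in the mouse. The third line carries both names and is called the combined line below. The promoter fragments, the toxin dose, the interval before collection, the age and sex of the animals and any pooling are not given in the sources used here, nor is whether the controls received toxin. Each line sample has a number of its own in its title, but the labels do not say whether the samples of a group came from separate animals, so the p-values measure the spread between these samples, which may in part be technical. In ATP4B-DTR, the Y-linked gene Ddx3y was high in sample 1 and near 0 in samples 2 and 3, so that group holds tissue from more than 1 animal.

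Mucins fall into 2 classes. Gel-forming mucins are secreted, joined end to end through cysteine-rich domains, and hold water in the mucus gel. In the stomach, Muc5ac is the mucin of surface pit cells and Muc6 that of mucous neck cells and deeper mucous glands, and Muc5b belongs to the same family. Membrane mucins such as Muc1, Muc4 and Muc13 span the plasma membrane, extend above it, and can be shed or pass signals to the cytoplasm. Both classes carry sugar chains on the serines and threonines of proline-, threonine- and serine-rich stretches that are often repeated in tandem.

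The 3 gel-forming members lie in 1 cluster on chromosome 7 (GENCODE M21 annotation, build GRCm38). Muc6 occupies chr7:141633456-141655319 on the minus strand, Muc5ac chr7:141788972-141819231 and Muc5b chr7:141839070-141873084, both on the plus strand. The intestinal gel-forming mucin Muc2 lies between Muc6 and Muc5ac and did not exceed 0.943 CPM (counts per mega-count) in any sample. Muc1 lies at chr3:89229057-89233381, Muc13 at chr16:33794037-33819934 and Mucl3 at chr17:35635752-35643695. Muc4 (chr16:32735886-32782391) and Muc20 (chr16:32777419-32797435) lie on opposite strands and overlap by 4973 bases, of which 627 are exonic in both. Mucl3 is covered over its whole length by Sfta2 on the opposite strand. The library kit kept strand, but whether the counting used it is not given in the sources used here, so the assignment of reads within these overlaps is uncertain, above all for Muc20 with its few counts. Sfta2 itself did not exceed 5.22 CPM in any sample, where Mucl3 was at 956.5 CPM or more.

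Proline, serine and threonine codons made up 44.8% of the coding sequence of Muc4, 44.1% of Muc1, 43.5% of Muc20, 41.1% of Muc6, 38.0% of Muc13, 34.0% of Mucl3, 33.8% of Muc5b and 31.2% of Muc5ac. Cysteine codons separated Muc5ac (7.38%) and Muc5b (6.27%) from the other members, which ranged from 3.80% in Muc6 to 0.475% in Muc1. Tandem repetition in the coding sequence also differed between the 2 main gastric gel mucins, and the repeats below are printed because they are the part of each gene that encodes the sugar-bearing stretches of the protein. Within a window of 300 bases, Muc5ac matched itself at a distance of 96 bases with 97.7% identity. Each 96-base stretch is itself a pair of similar 48-base copies, which differ at 1, 6 and 5 bases in the stretches shown. Muc6 repeated at 507 bases with 77.7% identity. Here are 3 successive Muc5ac stretches, 96 bases each, starting at base 5989 of the coding sequence, and the first 150 bases of 2 Muc6 repeats, starting at coding bases 5407 and 5914. They are in the sense of the transcript, and capitals mark the bases that differ from the first copy shown (5 and 4 in Muc5ac, 31 in Muc6).
Muc5ac repeat 1: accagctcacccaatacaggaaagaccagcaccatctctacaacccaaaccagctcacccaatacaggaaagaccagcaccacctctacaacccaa
Muc5ac repeat 2: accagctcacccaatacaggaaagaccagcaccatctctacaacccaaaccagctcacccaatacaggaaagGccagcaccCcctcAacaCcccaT
Muc5ac repeat 3: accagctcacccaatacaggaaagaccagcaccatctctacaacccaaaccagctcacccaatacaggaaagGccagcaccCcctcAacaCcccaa
Muc6 repeat 1: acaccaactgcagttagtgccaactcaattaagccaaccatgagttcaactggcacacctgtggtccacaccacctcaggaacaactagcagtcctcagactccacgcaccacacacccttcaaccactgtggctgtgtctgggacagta
Muc6 repeat 2: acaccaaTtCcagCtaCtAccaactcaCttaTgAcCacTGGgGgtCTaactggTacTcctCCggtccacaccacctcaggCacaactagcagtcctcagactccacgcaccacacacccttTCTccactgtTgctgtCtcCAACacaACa

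Sequences repeated within a gene still belong to that gene, and the deposited counts of Muc1, Muc4, Muc5ac, Muc5b, Muc6 and Muc20 were whole numbers in all 11 samples. Those of Muc13 and Mucl3 were fractional in 1 sample each.

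The libraries held between 20.7 and 27.9 M counts (M, mega). The scaling factors for library composition (TMM) were 0.797 and 0.864 in the controls and 0.947 to 1.12 in the lines. CPM values below include these factors. The floor of 3 counts corresponds to 0.107 to 0.166 CPM. The 8 mucins took 1.79% and 1.11% of all counts in the controls, 0.314%, 0.828% and 1.13% in ATP4B-DTR, 0.811%, 1.32% and 0.858% in GIF-DTR, and 0.568%, 0.641% and 0.926% in the combined line. The widest 95% Wilson interval of these shares spanned 0.00983 percentage points and covers counting error only. The corpus identity of the tissue was seen in its markers: summed over 8 listed genes, parietal cell markers reached 17301 to 18844 CPM in the controls, 4014 to 5541 in ATP4B-DTR, 8505 to 10501 in GIF-DTR and 2351 to 3405 in the combined line. Chief cell markers (7 genes) reached 86127 to 192642, 17088 to 62080, 5243 to 22769 and 2865 to 12485 CPM in the same order. The Y-linked gene Ddx3y was at 40.8 to 53.2 CPM in both controls, ATP4B-DTR 1 and all GIF/ATP4B-DTR samples and at most 0.0793 CPM in ATP4B-DTR 2 and 3 and all GIF-DTR samples, which for GIF-DTR cannot be told apart from the genotype.

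Per kilobase of exon, which allows genes to be compared, the order of the mucins in control mucosa was Mucl3 (2167 CPM per kb), Muc5ac (1007), Muc1 (331), Muc6 (38.2), Muc13 (1.58), Muc4 (0.511), Muc5b (0.169) and Muc20 (0.00688). Mucl3, Muc5ac and Muc1 kept the first 3 places in the group means of every line. Muc6 came next in ATP4B-DTR (6.96 CPM per kb) and GIF-DTR (3.07), while in GIF/ATP4B-DTR its mean of 1.05 CPM per kb lay below Muc4 (1.63) and Muc13 (1.36). Muc20 was last in every group. The ranges of Muc13, Muc4 and Muc5b overlapped in the controls, as did those of Muc4, Muc13 and Muc6 in the combined line, so neighbours in these stretches of the order do not differ beyond their spread. The plot of CPM by sample shows these levels for every member.

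**Figure D1:**
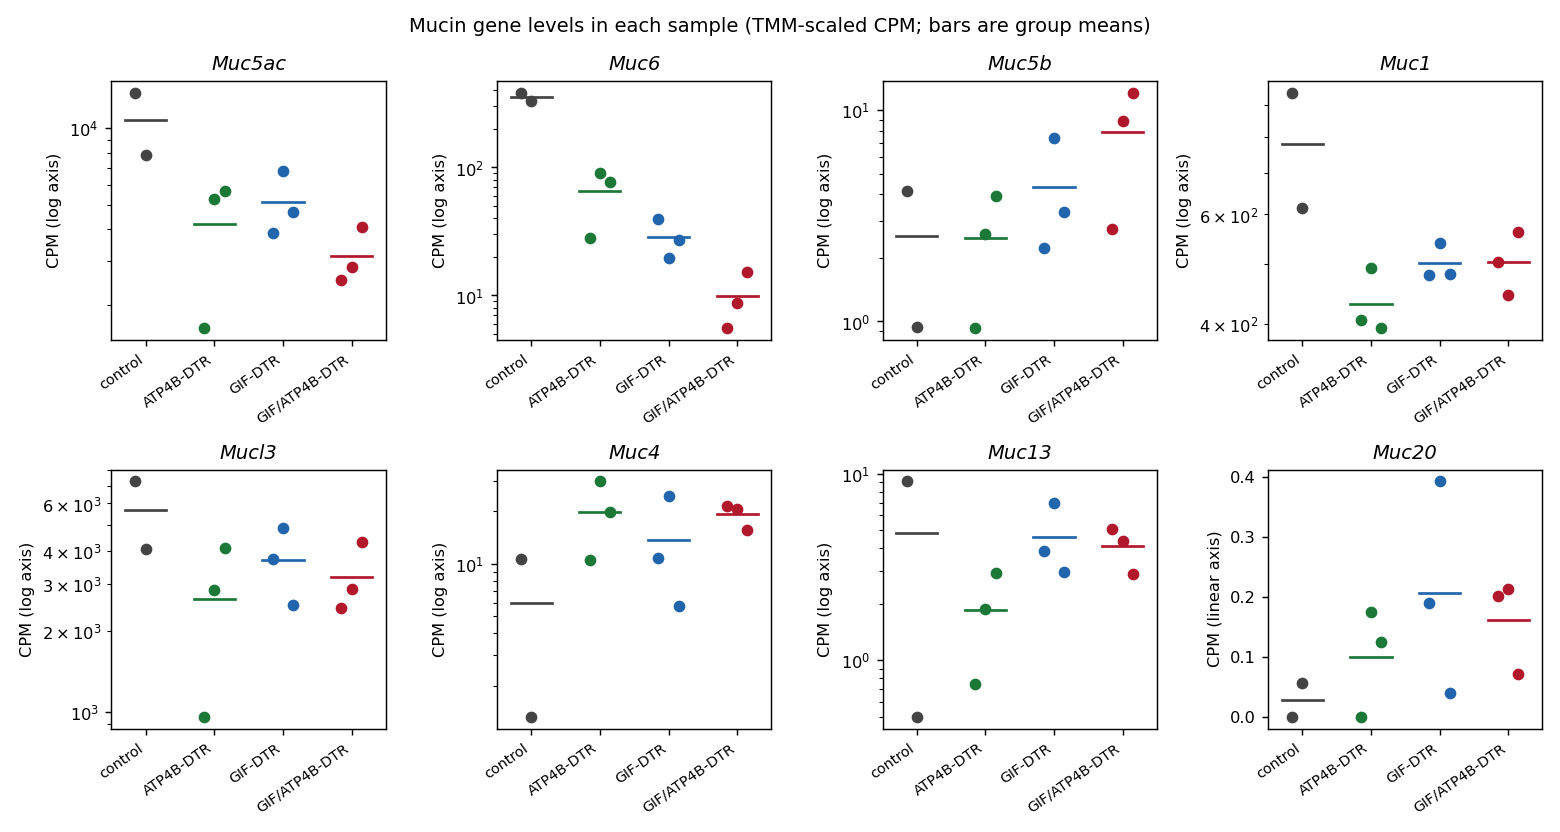
TMM-scaled CPM of each of the 8 mucin genes in each of the 11 samples, 1 panel per gene and 1 column per genotype, with bars at group means. Axes are logarithmic except for Muc20, which is on a linear axis because some values are 0; Muc6 falls from 358 CPM in the controls to 9.84 in GIF/ATP4B-DTR on average.

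Muc6, the gland-type gel mucin, was lower than control in all 3 lines and had the largest fold changes of the 7 tested mucins. The controls held 383 and 333 CPM. In ATP4B-DTR it was at 28.0, 90.5 and 77.0 CPM, in GIF-DTR at 39.3, 19.7 and 27.1, and in GIF/ATP4B-DTR at 5.56, 8.76 and 15.2. Every line sample lay below both controls, and the 3 lowest values of the series were those of the combined line. Group means were 358 ± 36.0 CPM (SD, n = 2), 65.2 ± 32.9 (n = 3), 28.7 ± 9.92 (n = 3) and 9.84 ± 4.91 (n = 3). Against control, edgeR gave log2 fold changes of -2.46 ± 0.52 (SE) in ATP4B-DTR (5.49-fold lower, adjusted p = 0.0102), -3.64 ± 0.53 in GIF-DTR (12.5-fold lower, adjusted p = 0.00352) and -5.18 ± 0.57 in GIF/ATP4B-DTR (36.2-fold lower, adjusted p = 0.000267). The 3 comparisons share the same 2 controls. In bulk tissue, fewer cells of a type and less RNA per cell cannot be told apart. The call held in 18 of 18 processing alternatives in each line, but the order of GIF-DTR and the combined line did not. With a Y-linked index as a covariate, edgeR gave -3.58 for ATP4B-DTR (adjusted p = 0.00626), -5.16 for GIF-DTR (adjusted p = 0.0127) and -5.09 for the combined line (adjusted p = 9.40e-05). Ddx3y varied widely within a group only in ATP4B-DTR. The slope of the covariate thus rests mostly on ATP4B-DTR 1, the lowest Muc6 sample of that group.

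Muc6 is usually taken as a neck cell product, and edgeR called no other listed neck cell gene lower in any line. Of 7 listed neck cell markers (Tff2, A4gnt, Glipr1, Aqp5, Cd44, Gkn3 and Wfdc2), 4 were higher than control and 0 lower in each line. Of all tested genes, 12.2%, 9.97% and 18.2% were called higher in ATP4B-DTR, GIF-DTR and the combined line, and 9.39%, 6.82% and 15.4% lower. The 0 of 7 called lower is thus near the share of all genes. The genes called were Aqp5, Cd44 and Wfdc2 in every line, with Gkn3 in ATP4B-DTR and Glipr1 in GIF-DTR and GIF/ATP4B-DTR. Aqp5, Cd44 and Wfdc2 were low in control, at means of 2.57, 9.58 and 4.41 CPM. Tff2 and A4gnt, the most abundant of the 7 in control, were not called in any line. The summed level of the 7, most of it Tff2, ranged from 860 to 1243 CPM in the controls, 1035 to 1662 in ATP4B-DTR, 1051 to 1941 in GIF-DTR and 1163 to 1379 in GIF/ATP4B-DTR. None of the 7 was at 0 in a group. Tff2, the trefoil peptide secreted together with Muc6, was at 930 ± 293 CPM in control and 913 ± 399, 1276 ± 432 and 1061 ± 194 in the lines, overlapping control in each. A4gnt, which caps the sugar chains of Muc6 with the terminal residue recognised in gland mucin, was at 78.2 and 88.1 CPM in the controls, 162, 127 and 98.2 in ATP4B-DTR, 96.9, 61.7 and 79.0 in GIF-DTR and 73.2, 37.7 and 23.3 in the combined line. It lay above both controls in every ATP4B-DTR sample and below both in every sample of the combined line, and edgeR called neither (log2 fold changes 0.64 and -0.90, adjusted p = 0.307 and 0.113), though the second was called under 2 of 18 alternatives. Set against Tff2 within each library, there were 33.7 and 46.0 Muc6 counts per 100 Tff2 counts in the controls, 4.69, 11.6 and 5.66 in ATP4B-DTR, 2.28, 1.58 and 3.15 in GIF-DTR, and 0.645, 0.818 and 1.22 in GIF/ATP4B-DTR. These 4 ranges do not overlap, and a ratio within a library does not depend on its scaling. The part of transcript length in this ratio was not tested. Chief and parietal cell markers also differed between the lines and control, as given above, and their part in the Muc6 result was not tested.

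Muc5ac, the surface gel mucin, was called lower in GIF/ATP4B-DTR. Levels were 13831 CPM in control 1 and 7815 in control 2. They were 1623, 5274 and 5676 CPM in ATP4B-DTR, 3873, 6776 and 4651 in GIF-DTR and 2506, 2833 and 4058 in GIF/ATP4B-DTR. All 9 line samples lay below both controls on this scale, but with plain library totals GIF-DTR 2 (7302 CPM) exceeded control 2 (6748 CPM). The 2 controls differed by 1.77-fold, so the gap to the lines depends on which control is used. Group means were 10823 ± 4255, 4191 ± 2233, 5100.3 ± 1503 and 3132 ± 818 CPM (SD). The call in GIF/ATP4B-DTR had a 3.46-fold difference (log2 fold change -1.79 ± 0.47 SE, adjusted p = 0.0142 by edgeR). That call was lost without control 1 (-1.32, adjusted p = 0.100 by edgeR) and held in the other 17 alternatives. It did not pass in ATP4B-DTR (-1.37 ± 0.47, adjusted p = 0.0613 by edgeR) or GIF-DTR (-1.09 ± 0.47, adjusted p = 0.143 by edgeR). With a Y-linked index as a covariate these became -2.61 (adjusted p = 0.00973 by edgeR) and -2.72 (adjusted p = 0.0359 by edgeR), and the DESeq2 Wald test called ATP4B-DTR at an adjusted p of 0.00876. The slope of that covariate rests mostly on ATP4B-DTR 1, the lowest Muc5ac sample of the series, against ATP4B-DTR 2 and 3. Without ATP4B-DTR 1, a library outside the comparison, edgeR also called GIF-DTR (-1.09, adjusted p = 0.0438).

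Of 8 listed pit markers (Gkn1, Gkn2, Tff1, Psca, Gsta1, Cldn18, Fut2 and Krt20), edgeR called 1 higher in ATP4B-DTR and in the combined line (Gsta1, a glutathione transferase), beside 12.2% and 18.2% of all genes called higher. In GIF-DTR it called 0 (16.8% of all genes), with 1 gene at an unadjusted p under 0.05 (31.4% of all tested genes) and 0 called by DESeq2 (22.6%). None of the 8 was called lower by edgeR in any line, beside 9.39%, 6.82% and 15.4% of all genes. Summed pit markers reached 76944 to 118273 CPM in control, 48383 to 100089 in ATP4B-DTR, 70696 to 94608 in GIF-DTR and 87804 to 102355 in GIF/ATP4B-DTR, and these ranges overlap. Muc5ac and Muc6 are long transcripts, with 10.8 and 9.36 kb of exon. Genes of 9 to 12 kb (n = 1065) had a median log2 fold change of -0.23, -0.20 and -0.29 in the 3 lines, and 1 in 20 of them lay below -1.35, -1.01 and -1.87. The fold changes of Muc5ac were near those bounds and those of Muc6 beyond them, and the part of transcript length in either result was not tested.

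Muc5b, the gel mucin of the airways and salivary glands, was at a few CPM. It was at 4.13 and 0.942 CPM in the controls, 0.931, 2.59 and 3.93 in ATP4B-DTR, 2.22, 7.43 and 3.29 in GIF-DTR and 2.74, 8.89 and 12.1 in GIF/ATP4B-DTR. The highest samples belonged to the combined line, yet its lowest sample lay between the 2 controls. The log2 fold changes against control were -0.04 ± 0.83, 0.76 ± 0.84 and 1.63 ± 0.86 (SE), with adjusted p of 0.980, 0.591 and 0.169 by edgeR, and the first of these changed sign under 3 alternatives.

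Muc1, a membrane mucin whose cytoplasmic tail can be phosphorylated, showed the smallest of the called changes. Levels were 940.0 CPM in control 1 and 614 in control 2. They were 407, 493 and 395 CPM in ATP4B-DTR, 480.0, 541 and 482 in GIF-DTR and 503, 445.7 and 562 in GIF/ATP4B-DTR. Every line sample lay below control 2 on this scale, by a narrow margin in some. With library totals alone, GIF-DTR 2 and 3 (583 and 539 CPM) and GIF/ATP4B-DTR 3 (581 CPM) exceeded control 2 (530.4 CPM). By edgeR, the log2 fold changes were -0.85 ± 0.19 (SE) in ATP4B-DTR (1.80-fold lower, adjusted p = 0.00980), -0.63 ± 0.19 in GIF-DTR (1.55-fold lower, adjusted p = 0.0434) and -0.63 ± 0.19 in GIF/ATP4B-DTR (1.54-fold lower, adjusted p = 0.0259). They held in 16, 9 and 14 of 18 alternatives. Without control 1 they were -0.51, -0.29 and -0.28, with adjusted p of 0.100, 0.382 and 0.291 by edgeR, so all 3 calls were lost without that library. The Y-linked index as a covariate ended the Muc1 calls in ATP4B-DTR (-0.90, adjusted p = 0.0545 by edgeR) and GIF-DTR (-0.72, adjusted p = 0.258 by edgeR) but not in the combined line (-0.62, adjusted p = 0.0382 by edgeR). The call in GIF-DTR was also lost without any 1 of its own samples, without ATP4B-DTR 3 and without sample 1 or 3 of the combined line (-0.69 to -0.60, adjusted p = 0.0515 to 0.107 by edgeR), and that in the combined line without its sample 1 (-0.62, adjusted p = 0.0549 by edgeR) or 2 (-0.55, adjusted p = 0.0772 by edgeR). With library totals, which shift the median of all genes to 0.30, 0.35 and 0.28, the Muc1 values were -0.53, -0.26 and -0.30, and edgeR called ATP4B-DTR alone (adjusted p = 0.0317, against 0.284 and 0.189 in the other two).

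Mucl3, a mucin-like gene of the major histocompatibility region, was the highest of the members per kilobase. It was at 7249 and 4064 CPM in the controls, 956.5, 2854 and 4084 in ATP4B-DTR, 3716, 4844 and 2500.2 in GIF-DTR and 2439, 2869 and 4288 in GIF/ATP4B-DTR. At least 1 sample of each line lay above control 2, so each line overlapped control. Its log2 fold changes were -1.10 ± 0.52, -0.62 ± 0.52 and -0.82 ± 0.52 (SE), with adjusted p of 0.157, 0.464 and 0.242 by edgeR. In ATP4B-DTR the lowest sample was the same one that was lowest for Muc5ac and Muc6, ATP4B-DTR 1. Only the fit with the Y-linked index, whose slope rests mostly on that sample, called Mucl3 in that line (-2.44, adjusted p = 0.0171 by edgeR).

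Muc4, a membrane mucin that can associate with the receptor ErbB2, was at low levels. It was at 10.7 and 1.33 CPM in the controls, 10.5, 29.7 and 19.8 in ATP4B-DTR, 10.8, 24.3 and 5.75 in GIF-DTR and 21.5, 20.5 and 15.6 in GIF/ATP4B-DTR. The 3 samples of the combined line lay above both controls, and the controls differed from each other by 8.03-fold, more than the fitted 3.28-fold, 2.24-fold and 3.16-fold differences of the lines. The log2 fold changes were 1.72 ± 0.86, 1.17 ± 0.85 and 1.66 ± 0.86 (SE), none past the threshold (adjusted p = 0.198, 0.397 and 0.170 by edgeR). Without control 1, edgeR gave 3.91 in ATP4B-DTR (adjusted p = 0.0377) and 3.85 in GIF/ATP4B-DTR (adjusted p = 0.0235). Muc4 is also a gene of stratified epithelium, and the summed markers of forestomach squamous epithelium (10 listed genes) were 16.6 to 49.2 CPM in the controls, 58.7 to 68.4 in ATP4B-DTR, 23.8 to 74.6 in GIF-DTR and 98.4 to 250.3 in GIF/ATP4B-DTR. Most of this sum was 1 gene, Ly6d, a small surface protein (15.1 to 47.6, 37.9 to 65.2, 21.97 to 72.9 and 95.5 to 247.9 CPM), which edgeR called higher in the combined line (adjusted p = 0.0419). The keratin Krt13 was called higher in ATP4B-DTR (mean 11.9 CPM, 0.610 in control, adjusted p = 0.0142 by edgeR). Of the other listed genes, Sbsn was at 0.901 CPM in control and 0.899, 1.34 and 0.806 in the lines. Krt5, Krt6a, Trp63 and Sprr3 were at 0 in all 4 groups. Krt4 and Krt14 were at 0 in control, with at most 4 and 5 counts in any line sample and Krt4 above 0 in all 3 ATP4B-DTR samples, and the part of forestomach tissue in the Muc4 values was not tested.

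Muc13, a membrane mucin best known from the intestine, differed more between the 2 controls than between most groups. It was at 9.11 and 0.499 CPM in the controls, 0.745, 1.89 and 2.94 in ATP4B-DTR, 3.88, 6.96 and 2.97 in GIF-DTR and 5.08, 4.36 and 2.92 in GIF/ATP4B-DTR. All 9 line samples fell between control 2 and control 1. The log2 fold changes were -1.37 ± 0.88, -0.07 ± 0.88 and -0.23 ± 0.87 (SE), with adjusted p of 0.300, 0.969 and 0.856 by edgeR. Without control 1 they became 1.89, 3.20 and 3.03, and the last was called (adjusted p = 0.0279 by edgeR). Without control 2, ATP4B-DTR was called in the other direction (-2.29, adjusted p = 0.0417 by edgeR), so no direction can be given for this gene.

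Muc20, a membrane mucin reported to bind the receptor Met, was barely detected. Counts were 0 and 1 in the controls, 0, 4 and 3 in ATP4B-DTR, 4, 10 and 1 in GIF-DTR, and 5, 5 and 2 in GIF/ATP4B-DTR. The highest value was 0.393 CPM. More than 3 counts were seen in 0 of 2 controls and in 1, 2 and 2 of the 3 samples of the respective lines, which is too few for a comparison.

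Counted over the 7 tested members, edgeR called 2 lower in ATP4B-DTR than in control, 2 in GIF-DTR and 3 in the combined line, and 0 higher in each. Among all tested genes, 9.39%, 6.82% and 15.4% were called lower in the same comparisons, and 12.2%, 9.97% and 18.2% higher. Higher genes were thus 56.5%, 59.4% and 54.2% of all calls, a split that became 86.7%, 92.8% and 80.2% with library totals. The samples of the lines did not overlap those of control for 3, 3 and 4 of the 7 members, against 48.6%, 48.0% and 56.3% of all genes, so absence of overlap with 2 controls is common in this series. The median log2 fold change of the members was -1.10, -0.62 and -0.63, beside -0.02, -0.01 and -0.04 over all genes. The members with the lowest levels (Muc4, Muc5b and Muc13) also had the largest standard errors, 0.83 to 0.88 on the log2 scale against 0.19 for Muc1, as the plot of fold changes shows.

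**Figure D2:**
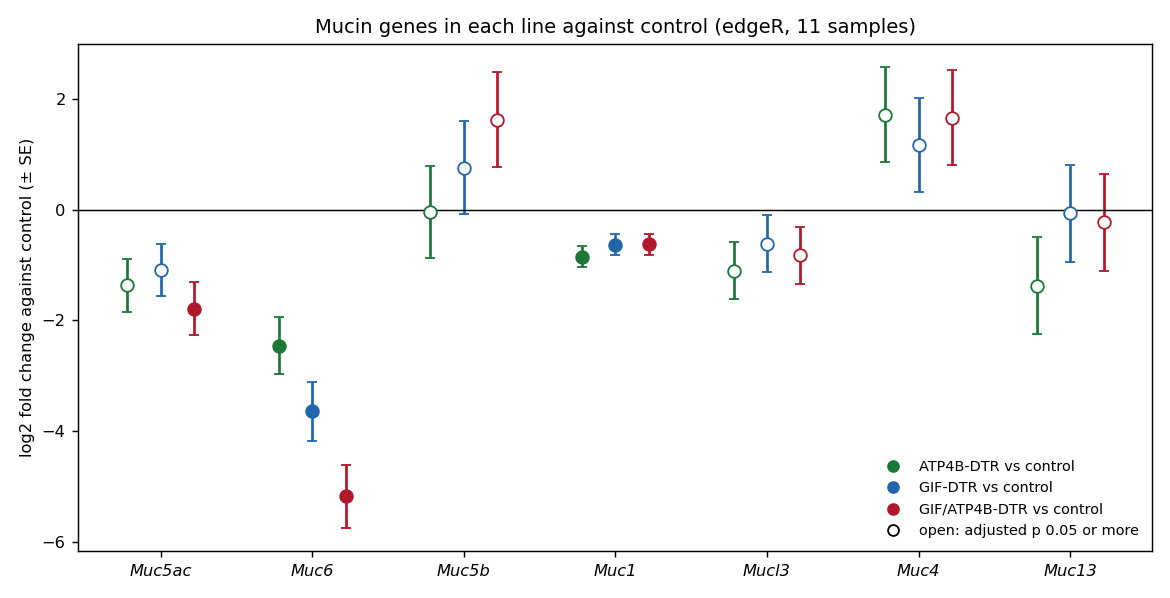
Log2 fold change against control (y axis, ± SE, edgeR on all 11 samples) of the 7 tested mucin genes (x axis) in ATP4B-DTR (green), GIF-DTR (blue) and GIF/ATP4B-DTR (red). Filled points have an adjusted p under 0.05: Muc6 and Muc1 in each line and Muc5ac in GIF/ATP4B-DTR; the bars of Muc4, Muc5b and Muc13 are the longest.

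Because a ratio between 2 genes of a library needs no scaling, the balance of gland to surface mucin was also compared directly. Per kilobase of exon there were 3.18 and 4.89 Muc6 counts for every 100 of Muc5ac in the controls, 1.98, 1.97 and 1.56 in ATP4B-DTR, 1.17, 0.334 and 0.670 in GIF-DTR and 0.255, 0.355 and 0.430 in GIF/ATP4B-DTR. The groups separate in this order except for GIF-DTR and GIF/ATP4B-DTR, which overlap. On the log2 scale of counts the mean ratio was -4.86 ± 0.44 (SD) in control, -5.98 ± 0.20 in ATP4B-DTR, then -7.49 ± 0.90 in GIF-DTR and -8.40 ± 0.38 in the combined line. The differences from control were -1.11, -2.63 and -3.54, which are ratios lower by 2.16-fold, 6.17-fold and 11.6-fold. Between lines, the difference was -1.51 for GIF-DTR minus ATP4B-DTR, -2.43 for GIF/ATP4B-DTR minus ATP4B-DTR and -0.91 for GIF/ATP4B-DTR minus GIF-DTR. A two-sided exact permutation test gave p = 0.1 for each except the last (p = 0.3), and 0.1 is the smallest p that 2 against 3 or 3 against 3 samples allow. Adjusted over the 6 comparisons these were 0.12 and 0.3 (Benjamini-Hochberg, exact permutation), so none could pass 0.05 in this design.

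Relative to Muc5ac, Mucl3 and Muc1 were higher in the combined line than in the controls. Mucl3 per 100 of Muc5ac (counts per kb) was 216 and 214 in the controls, 243, 223 and 296 in ATP4B-DTR, 395, 294 and 221 in GIF-DTR and 401, 417 and 435 in GIF/ATP4B-DTR. The 2 controls were nearly equal in this ratio although they differed by 1.78-fold in Mucl3 itself. Muc1 per 100 of Muc5ac was 31.1 and 36.0 in the controls, 115, 42.9 and 31.9 in ATP4B-DTR, 56.8, 36.6 and 47.5 in GIF-DTR and 91.9, 72.1 and 63.5 in GIF/ATP4B-DTR. In both ratios the 3 samples of the combined line lay above both controls, and for Mucl3 they lay above all 8 other samples. These 2 ratios are given as values without a test. Mucl3 and Muc1 have 2.61 and 2.35 kb of exon beside 10.8 kb for Muc5ac, and the part of transcript length was not tested.

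**Figure D3:**
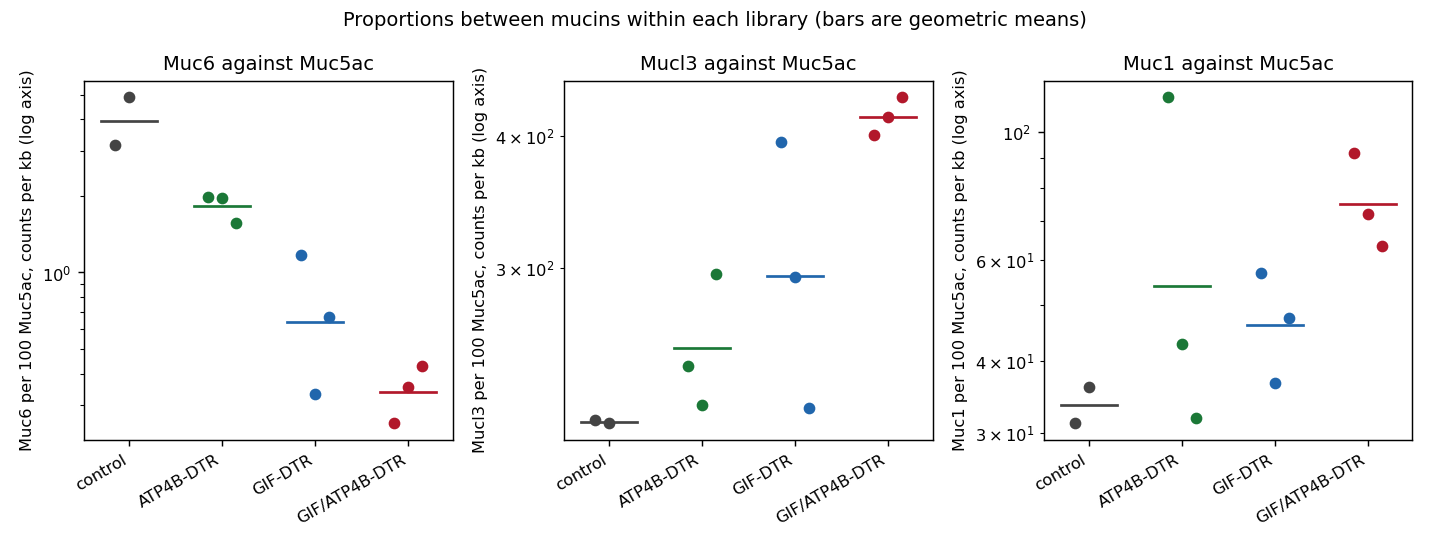
Counts per kilobase of Muc6 (left), Mucl3 (middle) and Muc1 (right) for every 100 counts per kilobase of Muc5ac in each of the 11 samples, on log axes, with bars at geometric group means. The Muc6 ratio goes from 3.18 and 4.89 in the controls to between 0.255 and 0.430 in GIF/ATP4B-DTR, where the Mucl3 ratio is 401 to 435.

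When the lines were compared with each other, edgeR called 0 of 7 members in each of the 3 comparisons. At an unadjusted p under 0.05 1 member differed between GIF-DTR and ATP4B-DTR, 2 between the combined line and ATP4B-DTR and 1 between the combined line and GIF-DTR, beside 9.81%, 10.4% and 18.0% of all genes. DESeq2 called 0, 1 and 1 member, beside 2.57%, 1.87% and 6.63% of all genes. Few genes were called by edgeR in these comparisons, 0.490%, 0.00% and 2.53% of those tested. Muc6 had the largest difference of the 7 in both comparisons with the combined line. It was lower in GIF/ATP4B-DTR than in ATP4B-DTR in every sample (log2 fold change -2.72 ± 0.50 SE, adjusted p = 0.107 by edgeR and 1.98e-07 by DESeq2), and without ATP4B-DTR 1 edgeR gave -3.10 with an adjusted p of 0.0313. When the Y-linked index was a covariate it was -1.50 with an adjusted p of 0.549 by edgeR, the smallest difference and highest p of the 18 alternatives. GIF/ATP4B-DTR also lay below GIF-DTR in every sample for Muc6 (-1.54 ± 0.49 SE, adjusted p = 0.154 by edgeR and 0.00705 by DESeq2). This last difference was 0.071 when the Y-linked index was a covariate, and the 2 lines differ in Y-linked expression in every sample, so genotype and Y-linked expression cannot be told apart here. GIF-DTR and ATP4B-DTR overlapped, since GIF-DTR 1 (39.3 CPM) exceeded ATP4B-DTR 1 (28.0 CPM), with a Muc6 difference of -1.18 ± 0.47 (SE, adjusted p = 0.441 by edgeR).

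None of the other members passed in a comparison between lines. Muc5ac gave 0.28 ± 0.43 (GIF-DTR minus ATP4B-DTR), -0.42 ± 0.43 (GIF/ATP4B-DTR minus ATP4B-DTR) and -0.70 ± 0.43 (GIF/ATP4B-DTR minus GIF-DTR) on the log2 scale, with adjusted p of 0.881, 0.772 and 0.401 by edgeR. Muc13 was higher in every GIF-DTR sample than in any ATP4B-DTR sample (1.30 ± 0.81 SE, adjusted p = 0.666 by edgeR), the 1 member without overlap in that comparison. Muc6 was the 1 such member in each of the other two, and 16.9%, 15.1% and 26.4% of all genes did not overlap in the 3 comparisons. Whether the change from ATP4B-DTR to the combined line equalled the change from control to GIF-DTR was tested as an interaction on the log2 scale. It called 0 of 7 members by edgeR (97 genes, 0.651%, in all), with 1 member at an unadjusted p under 0.05 (15.6% of all genes) and 1 called by DESeq2 (4.90% of all genes). Both were Muc1 (0.86 ± 0.26 SE, adjusted p = 0.150 by edgeR and 0.0186 by DESeq2). The interaction sets control and the combined line, where Ddx3y was high, against GIF-DTR and ATP4B-DTR, where it was mostly near 0. Its median over 4 Y-linked genes was 8.77, so a departure from additivity can hardly be told apart from Y-linked expression. For Muc6 the interaction was 0.92 ± 0.70 (SE, adjusted p = 0.589 by edgeR), so its 3 fold changes were not shown to depart from additivity on the log2 scale, nor to follow it.

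The plot of ranges over alternatives shows how far each member's fold change moved with the processing.

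**Figure D4:**
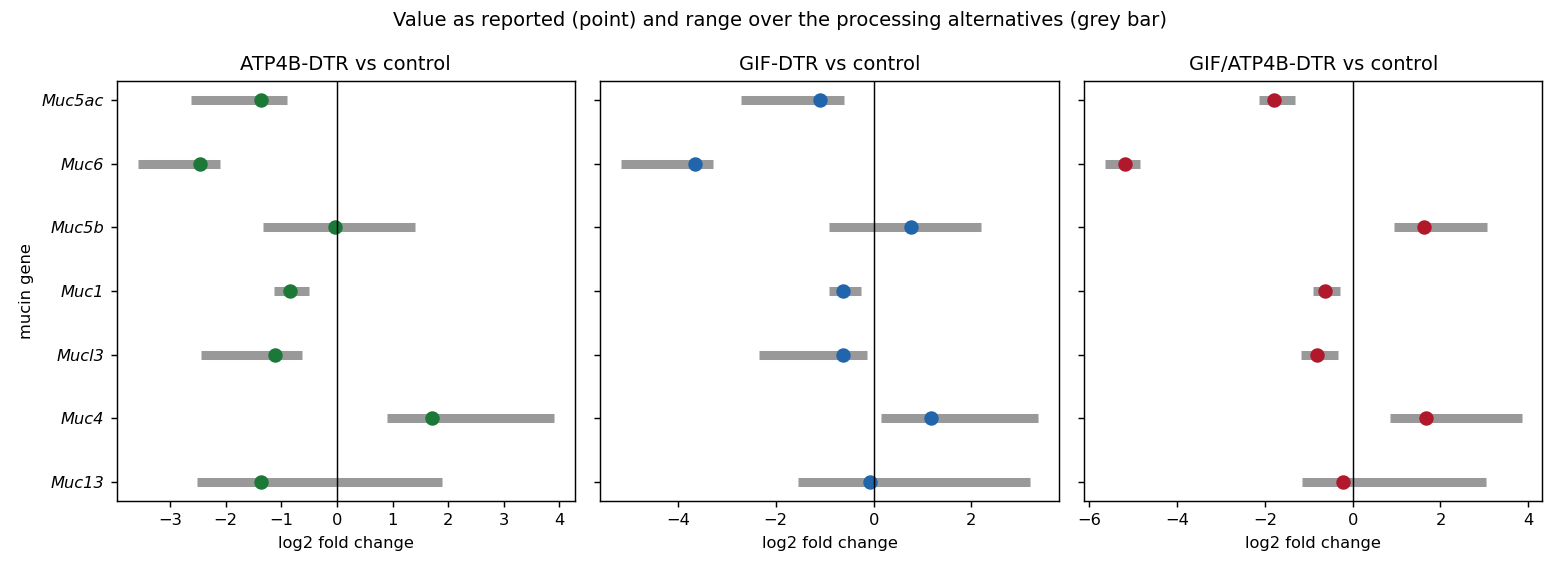
Log2 fold change against control of the 7 tested mucin genes (points) and its range over the processing alternatives (grey bars), 1 panel per line. The bars of Muc6, Muc5ac, Muc1 and Mucl3 stay below 0 in all 3 panels and those of Muc4 above it, while those of Muc13 cross 0 in each panel and those of Muc5b in ATP4B-DTR and GIF-DTR.

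The start regions of the members were examined because Muc6 and Muc1 were both called lower in all 3 lines. A RefSeq table (GRCm38.p6) matched 6 of the 8 members, and the 250 bases before the start are printed for the called genes it holds and for Mucl3, the most abundant per kilobase. Several sets of letters were searched on either strand, chosen after the sequences had been seen: TATAA, the core of the TATA box, GGGCGG, the GC box, and GATAA, the core bound by GATA factors. Capitals mark these matches, on either strand, and each sequence is in the direction of its gene.
Muc6, chr7:141655394-141655643, minus strand: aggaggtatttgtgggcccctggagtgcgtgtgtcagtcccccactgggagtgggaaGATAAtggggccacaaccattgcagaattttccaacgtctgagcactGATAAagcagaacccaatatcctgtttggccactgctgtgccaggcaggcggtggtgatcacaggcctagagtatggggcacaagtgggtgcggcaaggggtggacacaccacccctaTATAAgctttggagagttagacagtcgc
Muc1, chr3:89228806-89229055, plus strand: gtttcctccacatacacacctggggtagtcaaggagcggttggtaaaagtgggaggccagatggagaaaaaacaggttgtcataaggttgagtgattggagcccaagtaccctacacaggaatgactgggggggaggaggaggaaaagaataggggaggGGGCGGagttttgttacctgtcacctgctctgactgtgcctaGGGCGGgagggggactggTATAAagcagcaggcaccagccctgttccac
Mucl3, chr17:35643696-35643945, minus strand: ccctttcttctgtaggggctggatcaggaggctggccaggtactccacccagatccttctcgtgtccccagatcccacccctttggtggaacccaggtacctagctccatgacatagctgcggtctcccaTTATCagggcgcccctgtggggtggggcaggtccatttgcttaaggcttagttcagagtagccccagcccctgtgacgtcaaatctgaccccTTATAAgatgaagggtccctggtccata

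On the strand of the gene, TATAA lay 28 bases before the start of Muc6, 31 before Muc1, 27 before Mucl3 and 36 before Muc4. The RefSeq start of Muc6 used here, base 141655393, lies upstream of its GENCODE start at 141655319. The bases just after that RefSeq start were not found in a GENCODE transcript of Muc6, so its distances hold for the RefSeq start only. Of 32851 promoters in the table, 3.52% held TATAA on the gene's strand between 20 and 40 bases before the start, and 22.8% held it on either strand anywhere in the 250 bases. In Mucl3 the matches on the 2 strands overlap. GGGCGG was found in Muc1 at 91 and 49 bases before the start (32.7% of promoters hold it), and GATAA in Muc6 at 193 and 146 bases and, on the opposite strand, in Mucl3 at 120 bases (22.6%). These are matches of letters and say nothing of binding.

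Of 14 other mucin and mucin-like genes listed, 11 were in the table and 6 were tested, of which 0, 1 and 1 were higher and 1, 1 and 1 lower in the 3 lines by edgeR, beside 21.6%, 16.8% and 33.6% of all genes called, with medians of -0.80, -0.34 and -0.57. Parm1, a mucin-like membrane protein, and Cd164 were the abundant ones. Parm1 was at 317 and 229 CPM in the controls, 83.4, 135 and 124 in ATP4B-DTR, 116, 151 and 88.2 in GIF-DTR and 141, 120 and 163 in GIF/ATP4B-DTR. All 9 line samples lay below both controls. Its log2 fold changes were -1.26 ± 0.26, -1.20 ± 0.26 and -0.95 ± 0.26 (SE), with adjusted p of 0.00634, 0.0114 and 0.0152 by edgeR. Ovgp1, an oviduct glycoprotein, was called higher in GIF-DTR and GIF/ATP4B-DTR at means under 1 CPM. Cd164 was at 374 ± 47.4 CPM in control and 296 ± 20.2, 276 ± 18.4 and 328 ± 32.0 in the lines and was not called by edgeR, while DESeq2 called it lower in ATP4B-DTR (adjusted p = 0.0316) and GIF-DTR (adjusted p = 0.00462).

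The machinery that folds, packages and releases mucins (16 listed genes, 14 tested) had 0 genes called higher by edgeR in any line and 2, 2 and 5 lower, beside 9.39%, 6.82% and 15.4% of all genes called lower. Their median log2 fold changes were 0.01, -0.28 and -0.03. Syt7, a calcium sensor of vesicle release, was lower in all 3 lines, from 77.9 ± 9.43 CPM to 22.9 ± 9.83, 22.1 ± 1.67 and 14.2 ± 1.09. Its log2 fold changes were -1.77 ± 0.26, -1.82 ± 0.26 and -2.45 ± 0.27 (SE), with adjusted p of 0.00148, 0.00226 and 0.000128 by edgeR. Creb3l1, a transcription factor of secretory cells, was lower in GIF-DTR (109 to 53.0 CPM, -1.04, adjusted p = 0.0181 by edgeR) and GIF/ATP4B-DTR (45.2 CPM, -1.26, adjusted p = 0.00285 by edgeR). Galnt6, which starts O-linked sugar chains, was lower in ATP4B-DTR (132 to 52.0 CPM, -1.35, adjusted p = 0.0153 by edgeR) and GIF/ATP4B-DTR (43.7 CPM, -1.60, adjusted p = 0.00397 by edgeR). Creb3l4 and the unfolded protein response factor Xbp1 were called lower by edgeR in the combined line and not in the other two lines. No comparison between lines called either by edgeR, while DESeq2 called Creb3l4 lower in the combined line than in ATP4B-DTR (adjusted p = 0.000896) and GIF-DTR (adjusted p = 0.0108). Against control, DESeq2 also called Xbp1 lower in ATP4B-DTR (adjusted p = 0.0214) and GIF-DTR (adjusted p = 0.0115).

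Of the mucus partner proteins (13 listed, all tested), edgeR called 5, 1 and 3 higher and 0 lower. With 12.2%, 9.97% and 18.2% of all genes called higher, the counts in GIF-DTR and the combined line are near the share of all genes. The medians were 1.35, 0.61 and 1.64. Dmbt1, a mucus glycoprotein that binds bacteria, was higher in all 3 lines, at 44.0 ± 8.48 CPM in control and 596 ± 148, 309 ± 51.2 and 384 ± 182 in the lines (log2 fold changes 3.76, 2.81 and 3.12, adjusted p = 0.000451, 0.00234 and 0.000374 by edgeR). Clca1, a secreted protease that acts on mucus in the intestine, was higher in ATP4B-DTR. It was at 127 and 44.1 CPM in the controls, 1821, 3421 and 540 in ATP4B-DTR, 59.3, 154 and 27.9 in GIF-DTR and 377, 248 and 175 in GIF/ATP4B-DTR. The ATP4B-DTR samples were the 3 highest, and the log2 fold change was 4.49 ± 1.08 (SE, adjusted p = 0.0201 by edgeR). Gkn3, a gastrokine of neck cells, was called in ATP4B-DTR (19.0 to 149 CPM), and the lectin Lgals3 in ATP4B-DTR (39.9 to 102 CPM) and GIF/ATP4B-DTR (127 CPM). Clca2 was called in the same lines as Lgals3 at means of 1.75 CPM or less.

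Enzymes of mucin O-glycosylation (22 listed, 20 tested) had medians near 0, at -0.01, -0.28 and -0.16. By edgeR 1 of the 20 was higher in ATP4B-DTR, beside 12.2% of all genes, with 5 at an unadjusted p under 0.05 (34.8% of all genes). In GIF/ATP4B-DTR 2 were higher and 2 lower, beside 18.2% and 15.4%. In GIF-DTR edgeR called 0 (16.8% of all genes), with 4 at an unadjusted p under 0.05 (31.4% of all genes) and 1 called by DESeq2 (22.6%). Galnt1, another initiating transferase, was higher in ATP4B-DTR (0.42 ± 0.13, adjusted p = 0.0376 by edgeR) and GIF/ATP4B-DTR (0.41 ± 0.13, adjusted p = 0.0292 by edgeR). In GIF/ATP4B-DTR, C1galt1c1, the chaperone of the core 1 enzyme, was higher (48.5 to 89.2 CPM), and B4galnt3 (75.6 to 30.3 CPM) and the sialyltransferase St3gal1 (26.8 to 3.03 CPM) were lower. Among receptors and proteases linked to membrane mucins (9 listed, all tested, medians -0.13, -0.31 and 0.06), Mst1r, a receptor kinase of the Met family, was lower in ATP4B-DTR (-0.94, adjusted p = 0.0340 by edgeR) and GIF/ATP4B-DTR (-1.15, adjusted p = 0.00927 by edgeR). It was the only one of the 9 called lower in either, beside 9.39% and 15.4% of all genes. In GIF-DTR edgeR called 0 of these 9 (16.8% of all genes), with 1 at an unadjusted p under 0.05 (31.4% of all genes) and 0 by DESeq2 (22.6%). Between lines, Met was higher in GIF/ATP4B-DTR than in GIF-DTR (54.5 to 84.6 CPM, adjusted p = 0.0366 by edgeR).

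**Figure D5:**
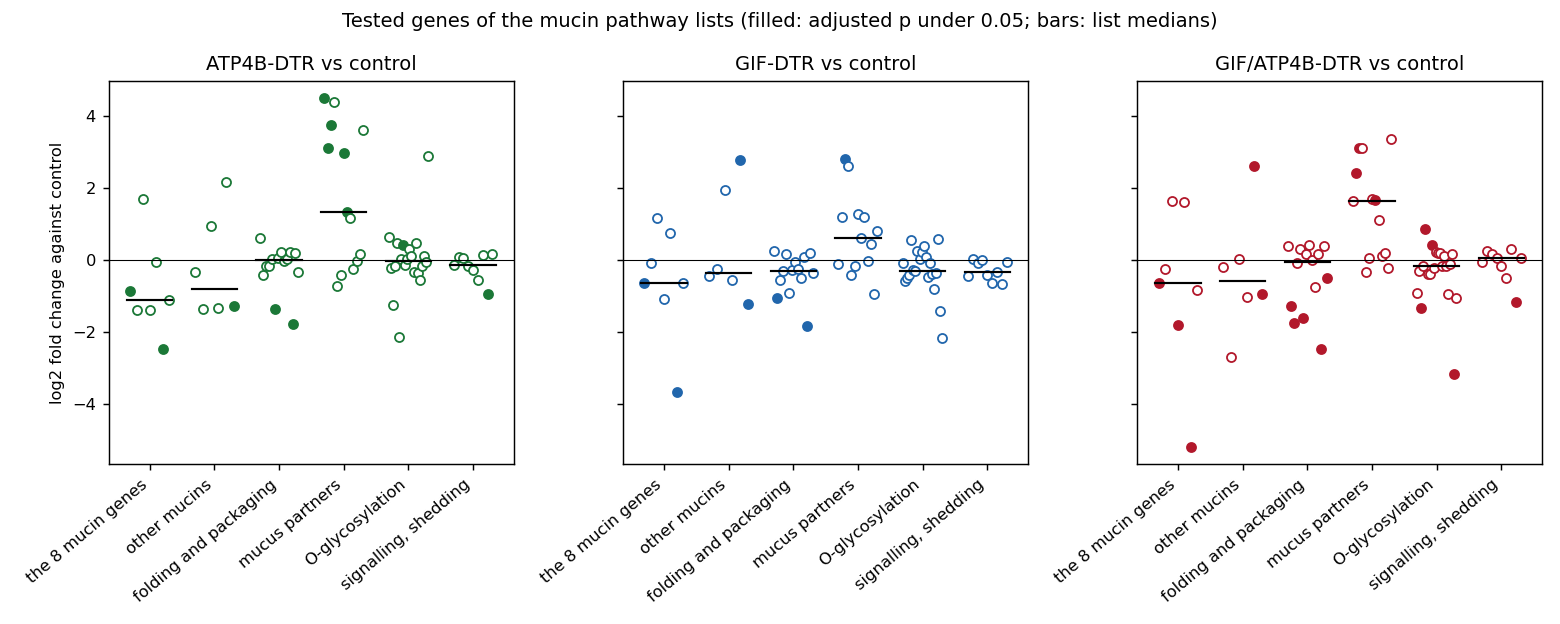
Log2 fold change against control (y axis) of each tested gene of the 8 mucins and of 5 lists of related genes (x axis), 1 panel per line, with filled points for an adjusted p under 0.05 and bars at list medians. The mucus partner proteins have the highest medians (1.35, 0.61 and 1.64) and the mucins medians of -1.10, -0.62 and -0.63.

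The genes most like each member over the 11 samples were found by Pearson correlation of log2 CPM among about 9199 genes with a mean of at least 8 CPM. These are descriptions over samples that share 4 groups and common scaling. Muc6 was most like Tef (r = 0.963), Prkcz (0.955) and Pdzd2 (0.955). Muc5ac was most like Ermp1 (0.982), Mst1r (0.970) and Smap1 (0.950). For Muc1 the nearest were Aldoa (0.947), Npepps (0.946) and Tor4a (0.937), and for Mucl3 Vstm2b (0.955), Cybrd1 (0.946) and Ubl3 (0.936). For the low members they included Tbk1 (0.918) and Mocos (0.914) for Muc4, and were Whamm (0.955), Dhx38 (0.904) and Ubxn4 (0.892) for Muc5b, and Lgals9 (0.945), Sema3c (0.889) and Myd88 (0.876) for Muc13. Between members, the closest pair was Muc5ac and Mucl3 (r = 0.868), followed by Muc5ac and Muc6 (0.752), while Muc4 and Muc6 gave -0.52.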

How the data were processed

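Bulk RNA from 11 gastric corpus samples was extracted with a Nucleospin kit and made into stranded poly(A) libraries, per the labels. The authors deposited expected counts per gene (30.7% of nonzero values are fractional). The build is mm10 per the submitters' processing notes, and the aligner, quantifier and annotation are not given in the sources used here. The planned tests assumed whole counts, so values were rounded. Genes kept by filterByExpr (14889) were tested with edgeR 4.0.16 (R 4.3.3): TMM scaling, robust quasi-likelihood fit of all 11 samples with 1 coefficient per group, Benjamini-Hochberg over all genes, threshold 0.05. The common biological coefficient of variation was 26.6%. SE is the log2 fold change divided by the square root of F. CPM is TMM-scaled, and levels per kb use GENCODE M21 exon lengths. Depth was 20.7 to 27.9 M counts, with a floor of 3 counts. Simulated counts with the same spread for every gene were also fitted, and their outcome is not used here. Related genes came from lists, and those past the threshold are named. The members and lists were chosen with earlier results of these data known. Alternatives were other scalings, filters, DESeq2 1.42.0, a Y-linked covariate and leaving out each sample. Library totals without TMM factors were added after seeing the data. The genes most like each member are the 3 with the highest correlation, of which 1 is not reported here. Replicate numbers come from titles for the controls and accession order otherwise.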

Additional observations from a re-analysis of the deposited data

How the results depend on the processing

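Precision is limited by 2 controls, which differ 18.3-fold in Muc13 and 8.03-fold in Muc4. No paired analysis was possible because the replicate numbers of the lines are in accession order and pair no samples. Of 651 recomputed values, 441 for single genes and 154 for counts and ratios kept their direction and their side of the threshold or moved little, and 17 changed sign. The filter requiring 10 counts in every sample gave no value for Muc13.

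The number of members called against control in GIF-DTR went from 2 to 1 with library totals and ranged from 1 to 3 when 1 sample was left out. It was 1 without control 1, any GIF-DTR sample, ATP4B-DTR 3, GIF/ATP4B-DTR 1 or GIF/ATP4B-DTR 3. These ranges were 2 to 3 in ATP4B-DTR and 2 to 3 in GIF/ATP4B-DTR. Of the comparisons between lines, GIF/ATP4B-DTR against ATP4B-DTR went from 0 to 1 with DESeq2 and ranged from 0 to 1 when a sample was left out, the 1 being without ATP4B-DTR 1. GIF/ATP4B-DTR against GIF-DTR and the interaction each went from 0 to 1 with DESeq2. The log2 Muc6 to Muc5ac difference with a sample left out ranged from -1.42 to -0.80 (ATP4B-DTR against control), -3.06 to -2.16 (GIF-DTR against control), -3.85 to -3.23 (GIF/ATP4B-DTR against control), -1.95 to -1.05 (GIF-DTR against ATP4B-DTR), -2.60 to -2.22 (GIF/ATP4B-DTR against ATP4B-DTR) and -1.38 to -0.48 (GIF/ATP4B-DTR against GIF-DTR).

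Over all genes, calls against control in GIF-DTR went from 2500 to 4165 with library totals and 491 with the Y-linked covariate, and in ATP4B-DTR from 3211 to 2011 with that covariate. Between lines, the DESeq2 Wald test and the covariate gave 383 and 22 against 73 (GIF-DTR and ATP4B-DTR), 1.87% and 0.00672% of genes against 0.00% (GIF/ATP4B-DTR and ATP4B-DTR) and 987 and 15 against 376 (GIF/ATP4B-DTR and GIF-DTR), and 730 and 5 against 97 in the interaction. Without a filter these were 103, 57 and 416, and the interaction 191. The interaction was 57 with DESeq2 size factors, 155 with at least 10 counts in every sample and 1003 with library totals.

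The sign changes against control were in Muc5b and Muc13, and the cause was not tested. Muc5b in ATP4B-DTR became 0.32 with library totals, 1.40 without control 1 and 0.35 without ATP4B-DTR 1, and in GIF-DTR -0.92 with the Y-linked covariate. With 1 sample left out, Muc5b in ATP4B-DTR ranged from -0.73 to 1.40, and Muc13 from -2.29 to 1.89 in ATP4B-DTR, -0.99 to 3.20 in GIF-DTR and -1.15 to 3.03 in GIF/ATP4B-DTR. Muc13 in ATP4B-DTR became 1.89 without control 1. In GIF-DTR it became 0.34 with library totals, 3.20 without control 1, 0.04 without GIF-DTR 1 and 0.18 without GIF-DTR 3. In GIF/ATP4B-DTR it became 0.14 with library totals and 3.03 without control 1. Between lines, Muc5ac in GIF-DTR minus ATP4B-DTR became -0.10 with the Y-linked covariate, -0.12 over samples without Y-linked expression and -0.10 without ATP4B-DTR 1 (-0.10 to 0.56 when any 1 sample was left out). With that covariate it became 0.92 in GIF/ATP4B-DTR minus ATP4B-DTR and 1.03 in GIF/ATP4B-DTR minus GIF-DTR, and Muc6 became 0.071 in the last comparison.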

Other observations

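Values of marker lists outside the comparisons above were as follows. All 8 listed proliferation genes, such as Mki67 and Top2a, were called higher by edgeR in ATP4B-DTR and the combined line, and 7 of 8 in GIF-DTR, beside 12.2%, 18.2% and 9.97% of all genes called higher, with summed levels of 183 to 271 CPM in control, 526 to 760.1 in ATP4B-DTR, 453 to 685 in GIF-DTR and 641 to 794 in GIF/ATP4B-DTR. Smooth muscle genes (6 listed) had 0 calls in each line by edgeR (21.6%, 16.8% and 33.6% of all genes in ATP4B-DTR, GIF-DTR and the combined line), with 0 at an unadjusted p under 0.05 and 0 by DESeq2. Their summed level spread from 305 to 1802 CPM in the 2 controls alone. Pancreas acinar genes summed to at most 101 CPM and mesothelial genes to at most 23.7 CPM in any sample. Antrum and intestine genes summed to 50.5 to 88.8 CPM in control, 113 to 132 in ATP4B-DTR, 87.1 to 157 in GIF-DTR and 116 to 184 in the combined line. Of these, Pdx1 was at 0.185 CPM in control and 3.18, 4.32 and 3.97 in the 3 lines, and Fabp2 at 10.7 CPM in control and 21.8, 26.7 and 41.3. By edgeR both were called higher in GIF-DTR and the combined line, 2 of 6 genes tested, beside 9.97% and 18.2% of all genes. In ATP4B-DTR edgeR called 0 of 6 (21.6% of all genes), with 3 at an unadjusted p under 0.05 (34.8% of all genes) and 2 called by DESeq2 (26.7% of all genes). Vil1, which made up most of the sum, was at 57.1 CPM in control and 95.2, 79.3 and 100.3 in the 3 lines. Lct was at 0.916 CPM in control and 0.946, 1.87 and 0.310 in the lines, so it was lowest in the combined line. Tff3 was at 0.730 CPM in control and 0.824, 0.382 and 0.631 in the lines. Gast, the hormone gene of antral G cells, was at no more than 1 count in the controls and the combined line and reached 1.74 CPM (42 counts) in ATP4B-DTR and 1.94 CPM (41 counts) in GIF-DTR. The intestinal factor Cdx2 was at 0 in control and GIF-DTR and at most 0.207 CPM in the other lines, and the part of antral or intestinal tissue in the mucin values was not tested. Macrophage and monocyte genes summed to 15.3 to 82.5 CPM in control, 48.9 to 105 in ATP4B-DTR, 116 to 194 in GIF-DTR and 40.6 to 68.4 in the combined line. By edgeR 1 of 8 (Ccr2) was called higher in GIF-DTR, near the 9.97% of all genes, with 2 at an unadjusted p under 0.05 (31.4% of all genes) and 2 by DESeq2 (22.6%). In ATP4B-DTR and the combined line edgeR called 0 (21.6% and 33.6% of all genes), with 0 at an unadjusted p under 0.05 and 0 by DESeq2. Between the combined line and GIF-DTR edgeR called 0 of 8 (2.53% of all genes), with 7 at an unadjusted p under 0.05 (18.0%) and 3 by DESeq2 (6.63%).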
